A study of Mus musculus with 2 samples.

Results

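The 4 mature miRNAs of the miR-126 locus were examined in small RNA of serum extracellular vesicles (EVs), the membrane particles that cells shed into the blood. They are both arms of the Mir126a hairpin (mmu-miR-126a-3p and mmu-miR-126a-5p) and both arms of the Mir126b hairpin, which is annotated on the opposite strand of the same locus (mmu-miR-126b-3p and mmu-miR-126b-5p; mmu stands for mouse and is left off below). They were taken by name from the 1847 miRNAs listed for each library, and each of the 4 had a row of its own that it shared with no other name. Serum came from male mice given tamoxifen at 7 weeks of age, at 100 mg/kg a day over 5 days in a row, and the samples are labelled Day 3, counted from the last dose. The iFIRKO mice carried Adipoq-CreERT2 and Insr flox/flox, so that tamoxifen deletes the insulin receptor gene in cells that use the adiponectin promoter, chiefly adipocytes. The control genotype is labelled WT, whereas the study's methods describe the controls as floxed Insr mice without Cre. Each group was 1 library made from serum pooled over several mice, so no spread between animals could be estimated and no test between genotypes was possible. The intervals below are 95% intervals that cover counting error only. No miRNA reports the deletion of Insr, and so the data hold no check of the genotype labels. Both for the miRNAs that the study followed up and for the bulk of all miRNAs, the direction in the deposited tables is the reverse of the one it describes. Every direction below therefore holds for the labels as given and would turn round if the labels of the 2 tables were exchanged, which was not tested.

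miR-126 is known as the most characteristic miRNA of endothelial cells, the lining of blood vessels, and is also found in haematopoietic progenitors, megakaryocytes and platelets. Its hairpin lies within Egfl7, a gene for a protein that endothelial cells secrete, and is transcribed together with it. Each hairpin is cut into a 5p and a 3p arm. miR-126a-3p is known to repress Spred1 and Pik3r2, which restrain the response of endothelial cells to vascular endothelial growth factor, and miR-126a-5p is known to act on Dlk1 in endothelial repair. Far less is known of miR-126b.

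The sequences show how the 4 miRNAs of the locus are related, and therefore how far their values can be told apart. In RefSeq on GRCm38.p6, Mir126a lies at chr2:26591357-26591429 on the plus strand and Mir126b at chr2:26591363-26591420 on the minus strand, so that all 58 bases of Mir126b lie inside the 73 bases of Mir126a. In the GENCODE annotation of GRCm38, the hairpin lies in an intron of Egfl7 in 8 of the 9 Egfl7 transcripts that span it and overlaps an exon of the other 1. In the 2 hairpins, written 5′ to 3′ each on its own strand, the capitals mark the mature arms that the sequence table holds.
Mir126a: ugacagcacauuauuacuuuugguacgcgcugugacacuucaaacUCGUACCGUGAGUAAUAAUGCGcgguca
Mir126b: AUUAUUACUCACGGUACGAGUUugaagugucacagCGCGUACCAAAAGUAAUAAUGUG

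The table holds a mature entry for 3 of the 4 arms, and miR-126a-5p is given by name. In the mature sequences, the capitals mark the seed, bases 2 to 8, which pairs with target transcripts.
miR-126a-3p: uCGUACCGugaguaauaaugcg
miR-126b-3p: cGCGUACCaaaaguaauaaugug
miR-126b-5p: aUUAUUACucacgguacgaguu

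miR-126b-5p (chr2:26591399-26591420, minus strand) lies opposite miR-126a-3p (chr2:26591402-26591423, plus strand), and they are exact complements of each other over 19 bases. miR-126b-3p (chr2:26591363-26591385, minus strand) lies opposite bases 7 to 29 of the Mir126a hairpin, on the side of miR-126a-5p. The arms miR-126a-3p and miR-126b-3p also resemble each other, with 17 of 22 bases identical when aligned without gaps. They share the run CGUACC, which covers bases 2 to 7 of miR-126a-3p and bases 3 to 8 of miR-126b-3p, so their seeds share 6 of 7 letters when shifted by 1 base. None of the 3 seeds occurs in any other of the 1592 listed miRNAs with a sequence in the table. Whether the counting used the strand of a read, and how many mismatches it allowed, is not given in the sources used here. Without the strand, reads of an arm and of its opposite arm could not be told apart.

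The total of each library, inferred from its values, was 3817902 counts (library labelled control) and 2233498 counts (library labelled iFIRKO). The listed miRNAs made up 99.3% and 99.1% of these totals, so shares of a library below are in effect shares of its miRNA counts. All 4 arms lay far above the floor of 10 counts below which the tables do not resolve values. Levels are given as counts per 1000000 of the library total (CPM), that is by number of counts and not by mass of RNA. The 3 arms with a sequence are 22 to 23 bases long.

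miR-126a-3p was the most abundant of the 4 arms. In the control-labelled library 106349 counts were assigned to it, which is 27855 CPM (95% Wilson interval 27691 to 28021), against 44166 counts, or 19774 CPM (19593 to 19958), in the iFIRKO-labelled library. It thus made up 2.79% of the control library and 1.98% of the iFIRKO library, and its rank by abundance went from 6 to 9. The ratio of iFIRKO to control was 0.710 (95% interval 0.702 to 0.718), a level 1.41-fold lower.

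miR-126a-5p, the other arm of the same hairpin, had 33356 counts (8737 CPM, 95% interval 8644 to 8831) in the control-labelled library and 13354 counts (5979 CPM, 5879 to 6081) in the iFIRKO-labelled library. The ratio was 0.684 (95% interval 0.671 to 0.698), a level 1.46-fold lower. Both miR-126a arms were therefore lower in the iFIRKO-labelled library, and neither was past 1.5-fold, the size used here to count miRNAs.

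miR-126b-3p had 5787 counts (1516 CPM, 95% interval 1477 to 1555) in the control-labelled library and 1669 counts (747 CPM, 712 to 784) in the iFIRKO-labelled library. Its ratio of 0.493 (95% interval 0.467 to 0.521), a level 2.03-fold lower, was the smallest of the 4. miR-126b-5p had 2180 counts (571 CPM, 95% interval 548 to 595) and 681 counts (305 CPM, 283 to 329), a ratio of 0.534 (95% interval 0.489 to 0.582), or 1.87-fold lower. Both miR-126b arms were past 1.5-fold, and their intervals did not overlap those of the miR-126a arms.

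**Figure D1:**
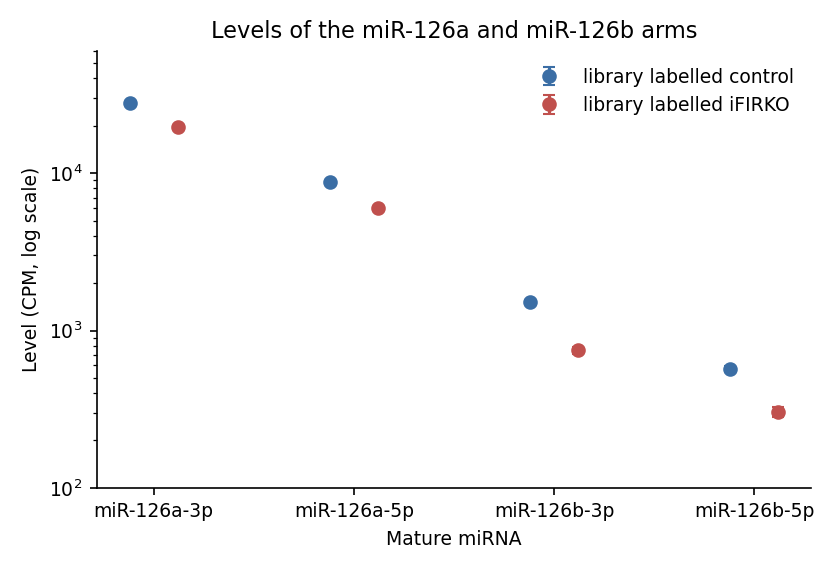
Level of each arm in counts per 1000000 (CPM) on a log axis, in the control-labelled library (blue) and the iFIRKO-labelled library (red); bars are 95% Wilson intervals of counting error and are mostly smaller than the points. The order of the 4 arms was the same in both libraries, and each arm was lower in the iFIRKO-labelled library, from 27855 to 19774 CPM for miR-126a-3p and from 571 to 305 CPM for miR-126b-5p.

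The order of the levels was miR-126a-3p, miR-126a-5p, miR-126b-3p, miR-126b-5p in both libraries, and no neighbours in this order had overlapping intervals. miR-126a-3p exceeded miR-126a-5p 3.19-fold (95% interval 3.15 to 3.23) in the control-labelled library and 3.31-fold (3.24 to 3.37) in the iFIRKO-labelled library. The distance from miR-126a-3p to miR-126b-3p, the leading arms of the 2 hairpins, was wider in the iFIRKO-labelled library, at 26.5-fold (95% interval 25.2 to 27.8) against 18.4-fold (17.9 to 18.9). miR-126b-3p exceeded miR-126b-5p 2.65-fold (95% interval 2.53 to 2.79) and 2.45-fold (2.24 to 2.68). Together the 4 arms made up 3.87% of the control-labelled library and 2.68% of the iFIRKO-labelled library, a ratio of 0.693 (95% interval 0.686 to 0.700).

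To place the arms among all miRNAs, the same ratio was computed for every listed miRNA. Of the 1847, 56 (3.03%) were over 1.5-fold lower and 1225 (66.3%) over 1.5-fold higher in the iFIRKO-labelled library, with a median log2 ratio of 0.88. A miRNA at the floor has no exact ratio, and among the 1736 with no library at the floor 21 (1.21%) were over 1.5-fold lower and 1149 (66.2%) over 1.5-fold higher. This excess of higher miRNAs is a direction to which the doubt about the labels applies. Of the 4 arms, all 4 were lower and 2 were over 1.5-fold lower, with a median log2 ratio of -0.73. The ratio depended on abundance, and most of the 1225 had few counts, so the arms were also set beside miRNAs of higher count. Of the 420 with a mean count of 100 or more, 18 (4.29%) were over 1.5-fold lower and 145 (34.5%) over 1.5-fold higher. Of the 118 with 1000 or more, 11 (9.32%) were over 1.5-fold lower and 3 (2.54%) over 1.5-fold higher, around a median log2 ratio of -0.07. Among the 118, 1 had a smaller ratio than miR-126b-3p, 4 had a smaller ratio than miR-126b-5p, 12 than miR-126a-5p and 18 than miR-126a-3p. The 118 include the 4 arms, so each of these counts holds any arm of smaller ratio. The 11 likewise include both miR-126b arms. The recovered counts were also compared by Fisher's exact test (two-sided, each miRNA against all others, Benjamini-Hochberg adjusted over the 1736 with no library at the floor). At an adjusted p under 0.05, 84 (4.84%) were lower and 1050 (60.5%) higher, and all 4 arms were among the lower. Such a test speaks of the libraries only, not of the genotypes behind them.

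**Figure D2:**
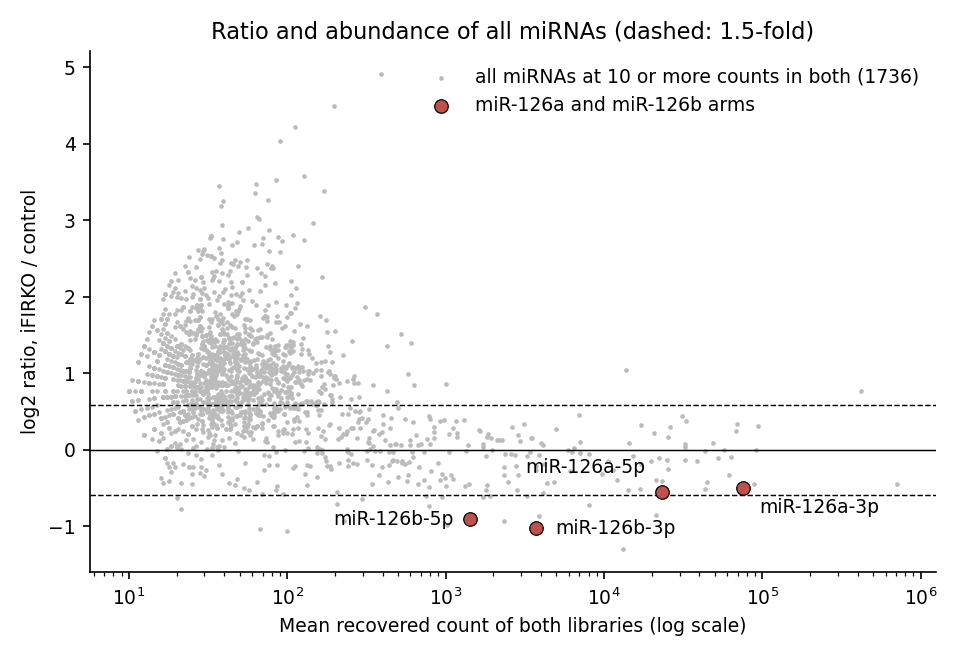
log2 ratio of the iFIRKO-labelled library to the control-labelled library (vertical axis) against the mean recovered count (horizontal axis, log scale) for the 1736 miRNAs at the floor in neither library (grey) and the 4 arms (red); dashed lines mark 1.5-fold in either direction. miR-126b-3p (log2 ratio -1.02) and miR-126b-5p (-0.91) lie below the lower line, and miR-126a-3p (-0.49) and miR-126a-5p (-0.55) lie just above it.

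In bulk EV RNA, fewer vesicles from a cell type and less of a miRNA in each vesicle cannot be told apart. The scaling of the libraries moves all 4 ratios together. Scaling to miR-148a-3p, the reference miRNA of the study, lowered every log2 ratio by a shift of 0.22, the median of ratios did so by 0.27 and TMM by 0.85. Under these 3 scalings all 4 arms were past 1.5-fold, with ratios of miR-126a-3p of 0.610, 0.590 and 0.393. The direction was the same under each scaling tried, whereas the distance between the miR-126a and miR-126b arms is not touched by a scaling.

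**Figure D3:**
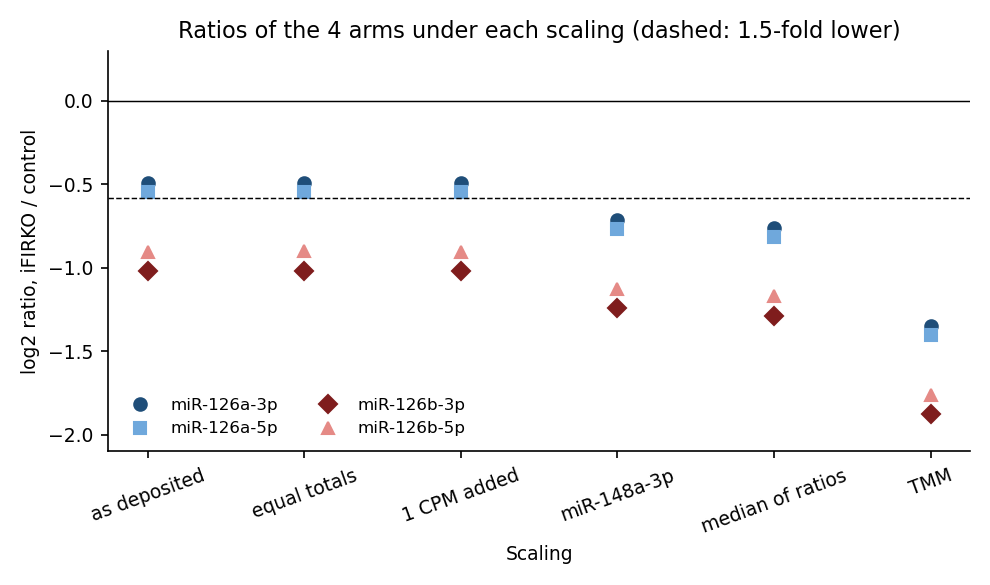
log2 ratio of the iFIRKO-labelled library to the control-labelled library for the 4 arms (symbols) as deposited and under 5 other settings (horizontal axis); the dashed line marks 1.5-fold lower. Every point lies below 0, and the miR-126a arms cross the dashed line with miR-148a-3p, the median of ratios and TMM, where miR-126a-3p is at -0.71, -0.76 and -1.35.

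The balance of the arms was then compared, which needs no scaling because both arms come from the same library. The 5p arm made up 23.9% of the miR-126a counts in the control-labelled library (95% Wilson interval 23.7 to 24.1) and 23.2% in the iFIRKO-labelled library (22.9 to 23.6). The 5p to 3p ratio of miR-126a changed by a factor of 0.964 (95% exact interval 0.942 to 0.986), a log2 difference of -0.05. For miR-126b the 5p arm made up 27.4% (26.4 to 28.4) and 29.0% (27.2 to 30.8), a factor of 1.08 whose interval (0.977 to 1.20) included 1. The arms of each hairpin thus moved nearly together. For comparison, 10 hairpins whose arm names differ only in 5p and 3p had 1000 or more mean counts on each arm, miR-126a and miR-126b among them. Hairpins with arms named otherwise were left out. An example is miR-16-5p (log2 ratio -0.45) with its more abundant 3p arm (-0.84), both above 1000 mean counts. Over the 10 the median size of this log2 difference was 0.33. Of them, 1 (miR-142a) had a smaller difference than miR-126a, and 3 (miR-142a, miR-30a and miR-126a itself) had a smaller difference than miR-126b. The differences ranged from -0.53 for let-7d to 0.48 for miR-486b.

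The balance of the strands was different between the libraries. The miR-126b arms made up 5.40% of the counts of all 4 arms in the control-labelled library (95% Wilson interval 5.28 to 5.51) and 3.93% in the iFIRKO-labelled library (3.77 to 4.08). The ratio of miR-126b to miR-126a counts changed by a factor of 0.716 (95% exact interval 0.683 to 0.751). Within the opposite arms, miR-126b-3p had 17.3 counts per 100 counts of miR-126a-5p in the control-labelled library and 12.5 in the iFIRKO-labelled library, a factor of 0.720 (95% interval 0.679 to 0.764). miR-126b-5p had 2.05 counts per 100 counts of miR-126a-3p and 1.54, a factor of 0.752 (95% interval 0.689 to 0.821). Both opposite pairs therefore shifted in the same direction and by overlapping factors, although the antisense level differed widely between them.

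Other listed miRNAs that are complementary to each other over at least 16 bases were set beside the miR-126 pairs. The search covered the 1592 of the 1847 listed miRNAs that have a sequence in the table, without those annotated only on chromosome 18. Pairs with any other listed miRNA were not looked for, so pairs of high count can be missing. It found 32 such pairs by sequence, to which miR-126a-5p with miR-126b-3p was added from the locus. Of the 32, 25 are annotated on opposite strands of a shared locus, and the others include both arms of 1 hairpin, such as miR-7243, or arms of different loci. With the added pair, 27 pairs had both arms above the floor, and in 13 of these the lesser arm was lower relative to its partner in the iFIRKO-labelled library. In 4 of the pairs found, the mean count was 1000 or more on both strands, and the lesser arm was relatively lower in all 4. Besides the miR-126 pairs, these were miR-142b, opposite the leukocyte miR-142a-3p, and miR-3074-5p, opposite miR-24-3p. miR-142b fell from 5.81% of its pair (95% Wilson interval 5.66 to 5.97) to 5.19% (4.99 to 5.39), a factor of 0.888 (95% interval 0.844 to 0.933). miR-3074-5p fell from 6.79% (6.54 to 7.05) to 5.33% (5.01 to 5.67), a factor of 0.773 (95% interval 0.715 to 0.835). The intervals of both miR-126 factors overlapped that of miR-3074-5p and lay below that of miR-142b. Of the 23 other pairs above the floor, whose lesser arms had mean counts from 13.5 to 134, none had an interval wholly below 1 and 3 had an interval wholly above 1. Of these 23, 18 were opposite strands of a locus, and among those 18 none lay wholly below 1 and 2 lay wholly above it. The 4 pairs of higher count were all of this kind.

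**Figure D4:**
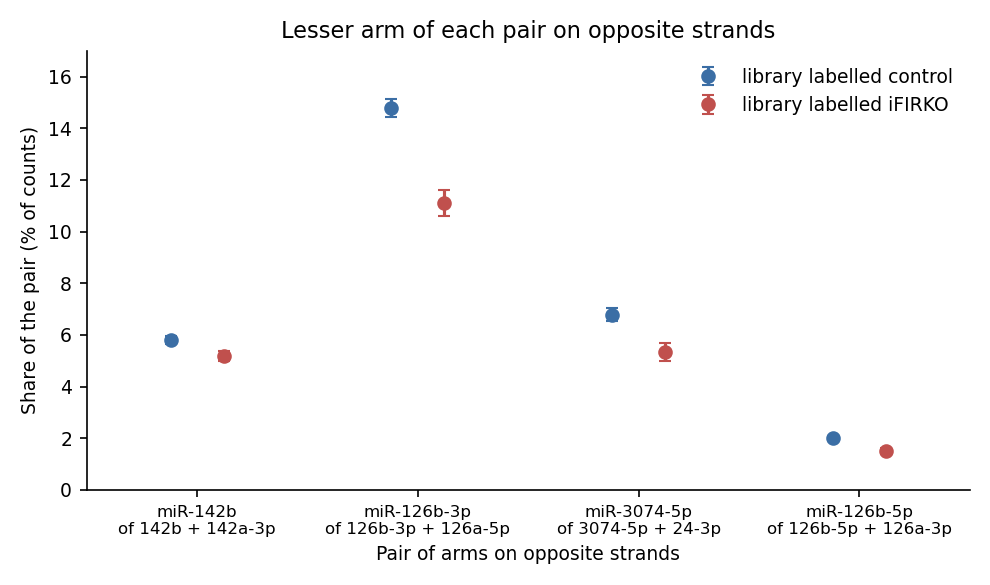
Share of the lesser arm in the counts of its pair (percent), in the control-labelled library (blue) and the iFIRKO-labelled library (red). Shown are the 4 pairs found on opposite strands with mean counts of 1000 or more on each arm. Bars are 95% Wilson intervals. In each pair the share is lower in the iFIRKO-labelled library, from 14.8% to 11.1% for miR-126b-3p and from 2.01% to 1.52% for miR-126b-5p.

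The 20 other miRNAs listed for endothelial cells and angiogenesis all had higher ratios than the 4 arms. Not all of them are restricted to endothelial cells, and miR-146a-5p also stands in the leukocyte list below. Of 20 such miRNAs, 11 were lower and 9 higher in the iFIRKO-labelled library as deposited and none was past 1.5-fold, with a median log2 ratio of -0.02. These counts depended on the scaling: 17 of the 20 were lower with miR-148a-3p, 19 with the median of ratios and 20 with TMM, where 19 were past 1.5-fold and the median was -0.88. The order is not touched by a scaling, and none of the 20 had a smaller ratio than miR-126a-3p. The lowest was miR-23b-3p, from a cluster with roles in angiogenesis, with 3470 and 1519 counts and a ratio of 0.748. The miR-221-3p and miR-222-3p pair, which restrains the Kit receptor in endothelial cells, had ratios of 0.963 and 0.802. The highest was miR-99b-5p, clustered with let-7e and miR-125a, with 1289 and 923 counts and a ratio of 1.22. miR-210-3p, the hypoxia-induced miRNA, had 867 and 537 counts, a ratio of 1.06. The 20 together made up 5.49% and 5.12% of the 2 libraries, against 3.87% and 2.68% for the miR-126 arms.

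Lists from other cells were set beside the arms, since miR-126 is not restricted to endothelium. Of 9 platelet miRNAs, 3 were lower and 6 higher, with a median log2 ratio of 0.10, which was below 0 with miR-148a-3p (-0.12), the median of ratios (-0.17) and TMM (-0.76). Within this list, miR-223-3p had a ratio of 0.799, miR-191-5p 1.24 and miR-25-3p 0.705. The platelet list summed to 9.49% of the control-labelled library and 9.40% of the iFIRKO-labelled library. All 5 erythroid miRNAs were lower, 3 of them past 1.5-fold, with a median log2 ratio of -0.86 and a sum of 1.41% and 0.798%. The erythroid list includes 3 miRNAs that the study followed up from these libraries (miR-451a, miR-144-3p and miR-486a-3p), so its direction is not independent evidence. The 4 smooth muscle miRNAs, which mark the vessel wall outside the endothelium, were all lower, with ratios from 0.482 (miR-145a-3p, 156 and 44 counts) to 0.868 (miR-143-5p) and a sum of 0.856% and 0.650%. No member of these lists was at the floor. The part of erythrocyte, platelet or smooth muscle miRNAs in the lower miR-126 levels was not tested.

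As deposited, 3 of the remaining lists had median log2 ratios nearer to no change than the erythroid (-0.86) and smooth muscle (-0.43) lists. The endothelial (-0.02) and platelet (0.10) lists were nearer still. The 5 leukocyte miRNAs were all lower with a median log2 ratio of -0.11, 5 of the 6 epithelial miRNAs were lower with a median of -0.11, and 4 of the 5 skeletal and cardiac muscle miRNAs were lower with a median of -0.14. With TMM all members of these 3 lists were lower, with medians of -0.96, -0.96 and -0.99. Under any scaling, no member of them had a smaller ratio than miR-126a-3p. The 4 liver miRNAs were all higher as deposited, with a median log2 ratio of 0.45 that became -0.40 with TMM scaling. They summed to 12.7% of the control-labelled library and 20.9% of the iFIRKO-labelled library. Only miR-122-5p among them was past 1.5-fold, with a ratio of 1.71.

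**Figure D5:**
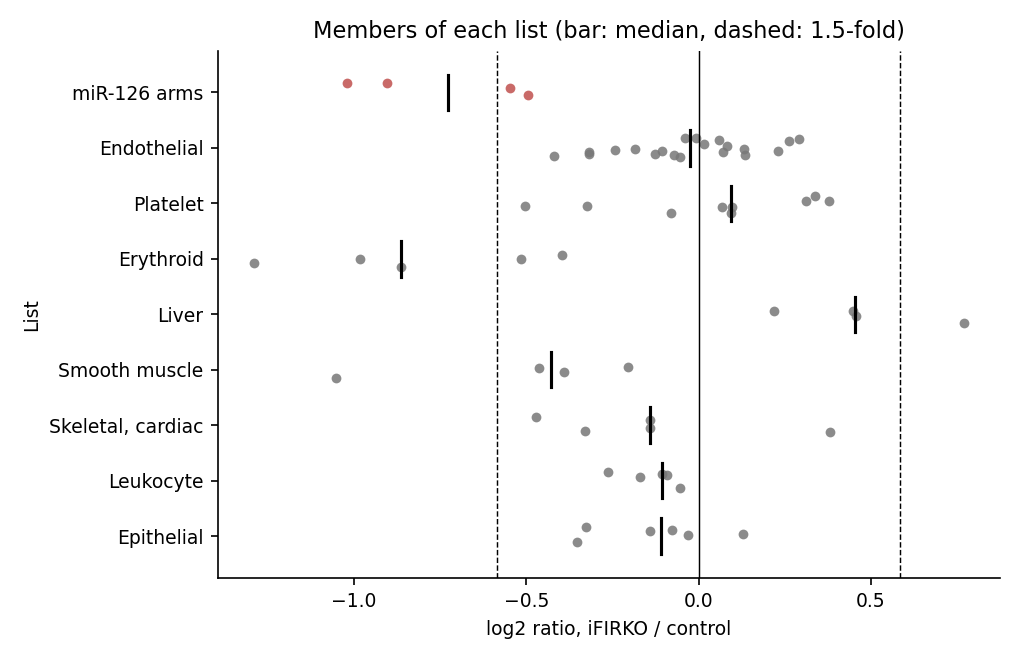
log2 ratio of the iFIRKO-labelled library to the control-labelled library for the miR-126 arms (red) and the members of 8 lists of miRNAs by source (grey); vertical bars are medians and dashed lines mark 1.5-fold. The 20 miRNAs of the endothelial and angiogenesis list lie between -0.42 and 0.29, all to the right of the 4 arms. The erythroid list lies between -1.29 and -0.40.

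The miRNAs nearest to each arm were then named, over 2 libraries only. In level, miR-126a-3p lay between let-7i-5p (log2 ratio 0.01) and miR-486b-5p (ratio 0.732) above it and miR-29a-3p (ratio 1.27) and miR-140-3p (ratio 1.19) below it. miR-126a-5p lay below miR-24-3p and miR-30e-5p and above miR-146a-5p and miR-148a-3p, with ratios of 0.845, 0.754, 0.929 and 1.16. miR-126b-3p lay among miR-744-5p, miR-425-5p, miR-101a-3p and miR-185-5p, whose ratios were between 0.943 and 1.12. These 4 had mean levels within 1072 to 1170 CPM, close to the 1132 CPM of miR-126b-3p, and none shared its ratio of 0.493. miR-126b-5p lay among let-7b-3p (0.736), miR-223-5p (0.986), miR-30b-5p (0.721) and miR-497a-5p (1.17).

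In ratio, within the 118 miRNAs of 1000 or more mean counts, the nearest to miR-126a-3p were miR-25-3p, miR-486a-5p and miR-30b-5p, within 0.02 on the log2 scale. The nearest to miR-126a-5p were miR-19b-3p, miR-106b-3p and let-7g-5p, within 0.03. The nearest to miR-126b-3p were miR-144-3p, miR-486b-3p and miR-126b-5p, with log2 distances of 0.04, 0.09 and 0.12. The nearest to miR-126b-5p were miR-486b-3p, miR-486a-3p and miR-16-2-3p, with distances of 0.03, 0.04 and 0.06. miR-144-3p, miR-486a-3p and miR-16-2-3p are among the miRNAs that the study followed up. A likeness over 2 libraries is a single ratio, and many miRNAs can share one.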

How the data were processed

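Small RNA of serum EVs was made into libraries with the QIAseq miRNA Library Kit and sequenced on a NextSeq500, and the authors processed them with GeneGlobe, the web service of the kit's maker. The submitters' processing notes name mm10. The aligner, the miRNA annotation release and the use of molecular identifiers are not given in the sources used here. The deposited signal of each miRNA is a whole count divided by 1 constant per library: within a tolerance of 0.01, 100% of the values came out whole in both libraries. No count from 2 to 9 occurs, so the lowest value was read as a floor for counts under 10. Counts were recovered with the constants 3817902 and 2233498, taken as depth.

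Ratios were computed on the deposited scale with no pseudocount. Alternatives were 1 CPM added, 4 other scalings, count filters, a 2-fold threshold and sums with the opposite arm. Intervals of ratios are Clopper-Pearson intervals of the share of both counts, and those of ratios of ratios are conditional exact intervals (scipy 1.17.1). TMM used edgeR 4.0.16. The scripts were tested on simulated data. The members and lists were chosen with earlier results of these data known. Named were the 4 arms, opposite arms, members of the 8 lists, 2 neighbours on each side in mean CPM, and the 3 nearest ratios at a mean count of at least 1000. The added pair, the split of pairs by locus, the count without floor miRNAs and the class of at least 1000 counts were chosen after seeing the data.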

Additional observations from a re-analysis of the deposited data

How the results depend on the processing

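No paired analysis was possible because the design has 1 library a group, and for that reason no library could be left out. All 4 arms kept a ratio below 1 under each setting in which it was recomputed. Equal totals and 1 CPM added left each ratio within its counting interval. Scaled to miR-148a-3p the ratios were 0.610 (miR-126a-3p), 0.588 (miR-126a-5p), 0.423 (miR-126b-3p) and 0.459 (miR-126b-5p), with the median of ratios, listed likewise, 0.590, 0.569, 0.410 and 0.444, and by TMM 0.393, 0.379, 0.273 and 0.295. Summed with the arm on the opposite strand, the pair of miR-126a-5p and miR-126b-3p had a ratio of 0.656, which is past 1.5-fold, and the pair of miR-126a-3p and miR-126b-5p 0.706, which is not. Adding the antisense arms to the arms they overlap moved the 5p share to 26.5% in the control-labelled library and 25.1% in the iFIRKO-labelled library. The antisense factor was 0.716 over all arms and 0.720 for miR-126b-3p against miR-126a-5p.

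The counts of all miRNAs past 1.5-fold moved more. The higher miRNAs numbered 794 at a 2-fold threshold, 145 at a mean count of at least 100, 3 at 1000 or more and 388 with TMM scaling. The lower miRNAs numbered 24 at a mean count of at least 10, 18 at 100, 11 at 1000, 21 without miRNAs at the floor, 360 with TMM scaling, 102 with miR-148a-3p and 113 with the median of ratios. The higher share of those past 1.5-fold was 95.6% as deposited, 21.4% at 1000 or more mean counts and 51.9% with TMM scaling. The filters tested fewer miRNAs, and a scaling applies 1 factor to every miRNA. For the endothelial list the median log2 ratio was -0.24 with miR-148a-3p, -0.29 with the median of ratios and -0.88 by TMM, and for the platelet list -0.12, -0.17 and -0.76. Depth was not the limit for the 4 arms, whose least count was 681, and the spread between animals was not measured.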
